A study of Rattus norvegicus with 15 samples.

Results

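Histone genes were examined in dispersed islet cells of rat pups, as 33 of the 17055 genes in the deposited count tables. They were chosen by symbol. Of them, 23 have symbols beginning with Hist1h to Hist4h and were taken as the clustered and replication-dependent genes. The other 10, with symbols beginning with H1f, H2af or H3f3, were taken as the replacement variants. Hist1h1t, a linker histone of the testis, is among the Hist genes, so the class name need not hold for every member. The Hist genes comprised 4 H1, 7 H2A, 8 H2B, 1 H3 and 3 H4 genes, and the variants comprised 3 H1, 6 H2A and 1 H3 gene. The rule used the symbols alone, although the set was picked with earlier results of these data known.

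The cells were islet cells of 10-day-old Sprague-Dawley rats, separated and transfected with a mimic of the microRNA miR-17-5p or with a control mimic, so that every group had gone through isolation, dispersal and transfection. RNA was sequenced in 4 groups: RNA recovered with Ago2, a protein of the RNA-induced silencing complex (RISC), from miR-17-5p cells (4 libraries, numbered 2, 4, 5 and 6) and from control cells (3 libraries, 1 to 3), and poly(A)-selected total RNA, called mRNA here, from miR-17-5p cells (5 libraries, 1, 2, 4, 5 and 6) and from control cells (3 libraries, 1 to 3). An oligo(dT) step is stated for the mRNA libraries and none is stated for the RISC libraries. The design asks which transcripts are bound by RISC and which change when miR-17-5p is added. The RISC and mRNA libraries differ both in Ago2 recovery and in the stated oligo(dT) step. In any comparison of RISC with mRNA, Ago2 binding and oligo(dT) selection therefore cannot be told apart. Islets hold several endocrine and non-endocrine cell types, and the labels do not say how many animals entered a library.

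Histones package DNA into nucleosomes, each built on H2A, H2B, H3 and H4, with H1 on the linker DNA. The Hist genes are transcribed mainly in S phase, and most of their mRNAs end in a conserved stem-loop in place of a poly(A) tail, although some Hist genes also yield polyadenylated mRNA. Variant genes such as H2afz and H3f3b are transcribed through the cell cycle, carry introns and yield polyadenylated mRNA. Oligo(dT) selection may therefore treat the classes differently, and its part in the values below was not tested. Islet cells of the first weeks of life still divide, which makes S phase transcripts relevant in this tissue. In bulk RNA, fewer cells of a type and less RNA per cell cannot be told apart.

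The transfected microRNA is shown first because it defines the treatment. Its mature sequence in RefSeq, on the plus strand at chr15:98587861-98587883 of build GRCr8, is given with its seed, bases 2 to 8, in capitals.
rno-miR-17-5p: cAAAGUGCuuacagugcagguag

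Promoters of 4 members whose counts differed between library types are shown to set the gene classes side by side. Each window runs from 250 bases before to 50 bases after the RefSeq start of the gene in GRCr8, on the plus strand, and capitals mark matches, on either strand, to the CCAAT box, the TATA box spelled as TATAAA, the octamer ATTTGCAT bound by Oct-1, and a box of H1 promoters, AAACACA. Hist2h3c2, an H3 gene, lies at chr2:186525912-186526211, Hist2h2ab, an H2A gene, at chr2:186467974-186468273, Hist3h2a, also an H2A gene, at chr10:44233033-44233332, and H2afz, which encodes the variant H2A.Z, at chr2:229028845-229029144.
Hist2h3c2: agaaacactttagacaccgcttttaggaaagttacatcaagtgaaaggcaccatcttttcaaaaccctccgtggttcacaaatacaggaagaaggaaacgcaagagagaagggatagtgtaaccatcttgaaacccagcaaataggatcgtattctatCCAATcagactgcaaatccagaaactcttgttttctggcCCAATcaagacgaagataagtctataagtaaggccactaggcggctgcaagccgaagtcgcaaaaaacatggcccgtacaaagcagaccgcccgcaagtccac
Hist2h2ab: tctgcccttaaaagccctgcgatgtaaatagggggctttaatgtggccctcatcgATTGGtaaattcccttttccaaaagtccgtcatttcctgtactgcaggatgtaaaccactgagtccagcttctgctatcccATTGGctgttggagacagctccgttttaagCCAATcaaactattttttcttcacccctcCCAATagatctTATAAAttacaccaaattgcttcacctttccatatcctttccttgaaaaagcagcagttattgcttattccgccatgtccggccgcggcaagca
Hist3h2a: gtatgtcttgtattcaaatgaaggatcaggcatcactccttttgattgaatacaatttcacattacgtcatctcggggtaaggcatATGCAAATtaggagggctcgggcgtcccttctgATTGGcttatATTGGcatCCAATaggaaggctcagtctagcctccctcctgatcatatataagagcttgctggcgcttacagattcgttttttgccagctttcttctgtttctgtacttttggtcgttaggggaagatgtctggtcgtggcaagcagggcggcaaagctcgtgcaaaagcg
H2afz: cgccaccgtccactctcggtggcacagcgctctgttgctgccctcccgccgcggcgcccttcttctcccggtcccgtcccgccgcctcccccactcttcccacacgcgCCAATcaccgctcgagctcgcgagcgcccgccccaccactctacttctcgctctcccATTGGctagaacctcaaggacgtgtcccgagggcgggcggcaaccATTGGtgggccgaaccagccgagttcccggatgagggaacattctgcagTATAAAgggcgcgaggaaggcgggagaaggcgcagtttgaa

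Hist2h3c2 held 2 matches to CCAAT and Hist2h2ab held 4, with 1 match to TATAAA. Hist3h2a held 3 matches to CCAAT and 1 to the octamer, and H2afz held 3 to CCAAT and 1 to TATAAA. No printed match overlapped another. CCAAT was present in 17 of 19 Hist promoters and 5 of 9 variant promoters with a window, against 37.5% of all 33469 RefSeq promoter windows of that length. TATAAA stood in 11 of 19 Hist and 2 of 9 variant windows, against 14.2% of all windows. The octamer was in 8 of 19 Hist and 1 of 9 variant windows, against 1.78% of all windows. AAACACA was in 4 of 19 Hist and 1 of 9 variant windows, against 6.99% of all windows. These are letter matches and not measured binding sites. Of the 33 members, 29 matched 1 RefSeq gene and Hist1h1d, Hist1h2bh, Hist1h2bl and H2afx matched more than 1, so their windows were not used.

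The RISC libraries held 4185123 to 13420403 counted reads and the mRNA libraries 3379456 to 21056240. Genes with a count numbered 9040 to 10753 in miR-17-5p RISC libraries, against 5589 to 7424 in control RISC libraries, which stood apart from all others; the mRNA libraries had 11142 to 12997. The 45S ribosomal RNA precursor Rn45s took 23.6% to 42.6% of reads in RISC libraries and 3.13% to 12.8% in mRNA libraries. Beta cell markers summed to 8913 to 19133 CPM (counts scaled to the effective library size over all 15 libraries, so that libraries of unequal depth compare) in RISC libraries and to 298160 to 557048 CPM in mRNA libraries, and 5 of 5 testis germ cell markers had no count. Stellate cell markers had summed levels between 14654 and 18680 CPM in the RISC libraries of miR-17-5p cells, against 3084 to 6889 CPM in control RISC libraries, and to 16508 to 36126 CPM in miR-17-5p mRNA libraries, against 9171 to 16371 CPM in control mRNA libraries. Macrophage markers summed to 161 to 272 CPM in the RISC libraries of miR-17-5p cells, against 0.159 to 65.9 CPM in control RISC libraries. Endothelial markers summed to 18.8 to 39.7 CPM in miR-17-5p mRNA libraries, against 47.0 to 73.1 CPM in control mRNA libraries. The part of cell makeup in the histone values below was not tested. The labels call the libraries biological replicates without naming separate animals or cultures, so p-values measure the spread between libraries, which may be partly technical.

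Histone reads were few. The Hist genes together had 243 to 1745 counts in a library and the variants 1662 to 11179. Of 33 members, 4 had no count in any library: Hist1h1t and H1fnt, linker histones of the testis, H2afb3, and H2afj. Another 5 had a count in all 15 libraries: Hist1h1d, Hist1h2bh, H1f0, H2afy and H3f3b. H1foo, the linker histone of oocytes, had counts in 1 library. Hist3h2bb had counts in 2 libraries.

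How many Hist genes were seen at all differed between libraries. A count was present for 18, 11, 18 and 15 of the 23 Hist genes in miR-17-5p RISC libraries 2, 4, 5 and 6, against 4, 9 and 6 in control RISC libraries 1, 2 and 3. In miR-17-5p mRNA libraries 1, 2, 4, 5 and 6 it was 20, 9, 18, 22 and 21 genes, against 17, 19 and 12 in control mRNA libraries 1, 2 and 3. All 3 control RISC libraries therefore showed fewer Hist genes than any miR-17-5p RISC library, as they did for genes in general.

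**Figure D1:**
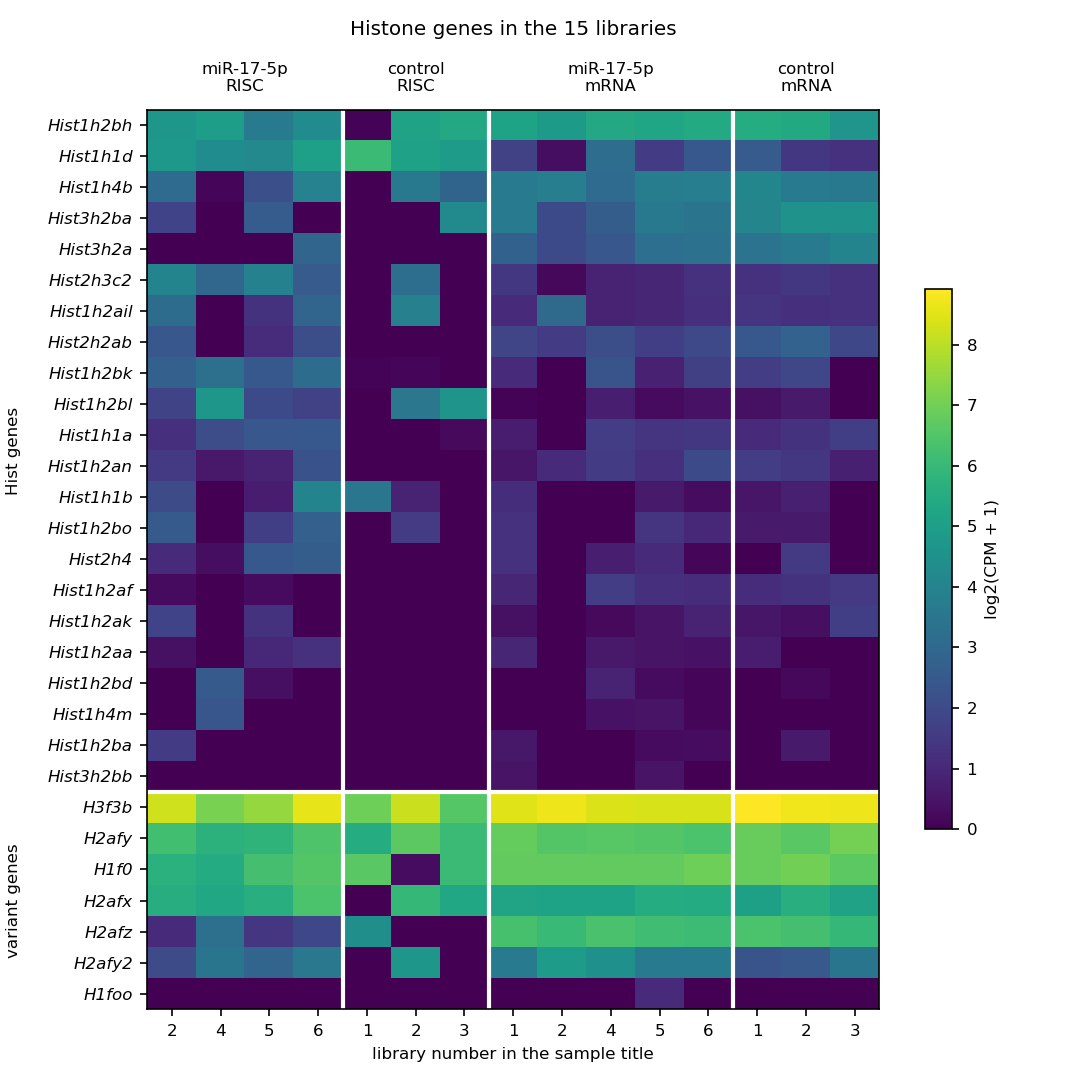
Level of the 29 members with any count (rows, Hist genes above the white line and variants below) in the 15 libraries (columns, grouped), as log2(CPM + 1). H3f3b is bright throughout. H2afz is darker in every RISC library than in any mRNA library, and Hist1h1d shows the opposite pattern. Most Hist genes are at 0 in control RISC libraries.

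Reads of the Hist genes were compared with reads of the variants within each library, a measure that does not depend on library size. There were 23.9, 35.9, 21.1 and 20.1 Hist reads per 100 variant reads in miR-17-5p RISC libraries 2, 4, 5 and 6, against 11.6, 7.89, 12.3, 12.9 and 14.6 in miR-17-5p mRNA libraries 1, 2, 4, 5 and 6. Control RISC libraries 1, 2 and 3 had 26.9, 23.8 and 44.7, against 13.0, 14.3 and 11.6 in control mRNA libraries 1, 2 and 3. Every RISC library was above every mRNA library. The averages were 25.3 ± 7.29 in miR-17-5p RISC libraries and 11.8 ± 2.48 in miR-17-5p mRNA libraries (SD, n = 4 and 5), and 31.8 ± 11.3 in control RISC libraries and 13.0 ± 1.36 in control mRNA libraries (SD, n = 3 each). Between mimics, the ranges overlapped in both library types when all members were counted.

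The summed level of the Hist genes did not separate the library types. It was 107 ± 22.8 CPM in miR-17-5p RISC libraries and 80.8 ± 13.8 CPM in miR-17-5p mRNA libraries (SD, n = 4 and 5), and 103 ± 23.0 CPM in control RISC libraries and 102 ± 13.3 CPM in control mRNA libraries (SD, n = 3 each). The summed variants were 448 ± 160 CPM in miR-17-5p RISC libraries and 687 ± 33.5 CPM in miR-17-5p mRNA libraries, and 343 ± 118 CPM in control RISC libraries and 782 ± 42.3 CPM in control mRNA libraries (same n). For the variants every RISC library except miR-17-5p RISC library 6, at 657 CPM, lay below every mRNA library, the lowest of which was at 655 CPM.

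The most counted gene of each class was left out next, Hist1h2bh and H3f3b. There were then 43.9 ± 7.03 Hist reads per 100 variant reads in miR-17-5p RISC libraries, ranging from 35.2 to 51.1, and 13.3 ± 2.69 in miR-17-5p mRNA libraries, from 9.10 to 16.3 (SD, n = 4 and 5). Control RISC libraries had 45.1 ± 1.93, from 43.0 to 46.8, and control mRNA libraries had 18.8 ± 0.726, from 18.1 to 19.5 (SD, n = 3 each). No RISC library overlapped the mRNA libraries. Between mimics, every miR-17-5p mRNA library then lay below every control mRNA library, while the RISC ranges overlapped. Without Hist1h1d, Hist1h2bl, Hist2h3c2 and H2afz, a choice made after their values were seen, there were 14.9 ± 2.98 Hist reads per 100 variant reads in miR-17-5p RISC libraries and 12.5 ± 2.49 in miR-17-5p mRNA libraries (SD, n = 4 and 5), and 13.8 ± 10.3 in control RISC libraries and 13.7 ± 1.56 in control mRNA libraries (SD, n = 3 each). The ranges then overlapped. These 4 genes were picked for their differences between library types, so a smaller gap without them follows from the choice. Without Hist1h1d alone, control RISC libraries ranged from 3.68 to 33.5, against 11.4 to 14.1 in control mRNA libraries. The same measure ranged from 15.3 to 29.3 in miR-17-5p RISC libraries, against 7.86 to 13.9 in miR-17-5p mRNA libraries, still without overlap.

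**Figure D2:**
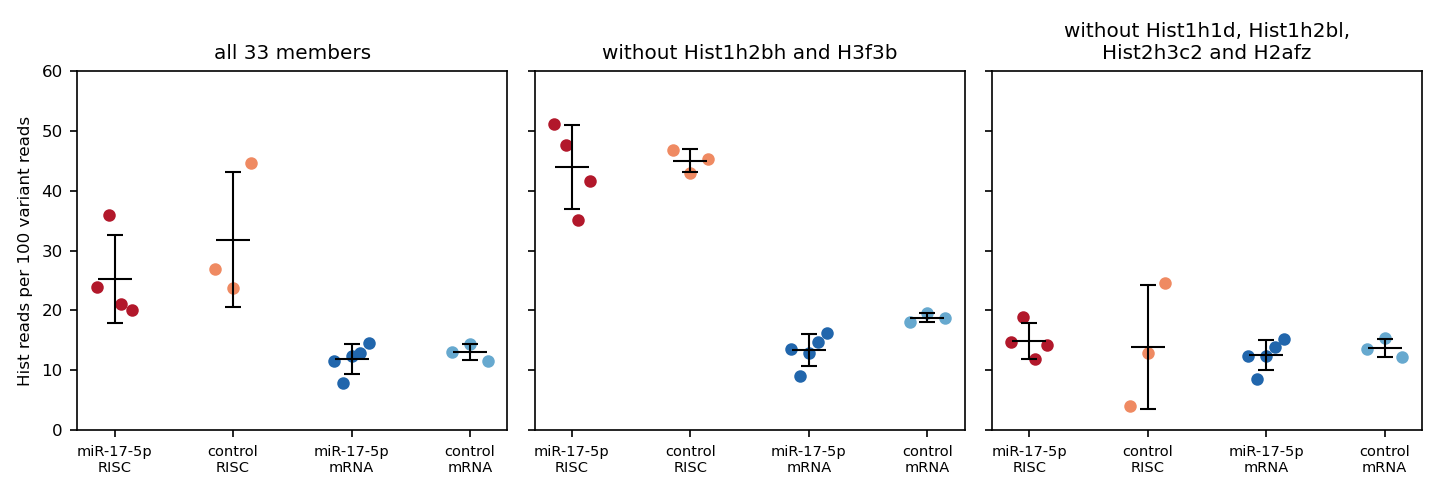
Hist reads per 100 variant reads in each library (points), with the mean and SD of each group (bars), for all 33 members (left), without the most counted gene of each class (middle) and without 4 genes chosen after their values were seen (right). With all members every RISC library, at 20.1 or more, lies above every mRNA library, at 14.6 or less, in the middle panel the RISC libraries are at 35.2 or more and the mRNA libraries at 19.5 or less, and without the 4 genes the ranges overlap.

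The composition of the Hist reads differed as well. Hist1h1d, a linker histone H1 gene, held 18.3% to 24.1% of the Hist reads of miR-17-5p RISC libraries, against 0.466% to 9.65% in miR-17-5p mRNA libraries. It held 86.3%, 29.1% and 25.0% of those of control RISC libraries 1, 2 and 3, against 1.57% to 4.57% in control mRNA libraries. Hist1h2bh, an H2B gene, held 14% to 30% of the Hist reads of miR-17-5p RISC libraries, against 42.5% to 48.5% in miR-17-5p mRNA libraries. In control RISC library 1 it held only 0.0725%, against 30.2% and 34.3% in control RISC libraries 2 and 3 and 27.6% to 41.7% in control mRNA libraries. Among the variants, H3f3b held 35.3% to 63.6% of the reads in RISC libraries and 50.03% to 58.1% in mRNA libraries.

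RISC and mRNA libraries of miR-17-5p cells were compared gene by gene with edgeR's quasi-likelihood F-test, two-sided, adjusted over all genes tested by the Benjamini-Hochberg method. A group of 3 Hist genes rose in RISC libraries, the linker gene Hist1h1d, the H2B gene Hist1h2bl and the H3 gene Hist2h3c2, and the variant H2afz fell. Of the 33 members 19 passed the filter on low counts, and 6 of them were called at an adjusted p under 0.05, with 4 higher and 2 lower, while 43.5% of the 10871 genes tested were called, 21.7% higher and 21.8% lower. The share of members called was thus not above that of all genes. Of the 13 Hist genes tested, 3 were called higher, a share near the 21.7% of all genes, and 0 lower. The median log2 fold change was 0.93 over the 13 Hist genes tested and -0.47 over the 6 variants tested, against -0.15 over all genes tested. DESeq2 size factors moved that last median to -0.26.

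Linker histones come first. Hist1h1d had 26.2, 19.0, 17.5 and 31.8 CPM in miR-17-5p RISC libraries 2, 4, 5 and 6, against 2.27, 0.271, 8.09, 1.92 and 4.43 CPM in miR-17-5p mRNA libraries 1, 2, 4, 5 and 6. Every RISC library was above every mRNA library. The log2 fold change was 2.96 ± 0.70 (SE; edgeR adjusted p = 0.0051), and it stayed called in all 8 alternative analyses and all 9 fits that left out 1 library.

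H1f0, the linker histone of differentiated and non-dividing cells, had 51.1, 43.7, 76.1 and 91.2 CPM in miR-17-5p RISC libraries 2, 4, 5 and 6, against 107, 108, 107, 108 and 121 CPM in miR-17-5p mRNA libraries 1, 2, 4, 5 and 6. The groups did not overlap, and RISC was lower. Its log2 fold change was -0.59 ± 0.21 (SE; edgeR adjusted p = 0.0444). The call was lost without any 1 of miR-17-5p mRNA libraries 1, 2, 4, 5 or 6 or of miR-17-5p RISC libraries 2 or 4, with adjusted p up to 0.110, and with the replicate numbers as a block (adjusted p = 0.0550). The remaining H1 gene that could be tested, Hist1h1a, averaged 3.40 ± 1.44 CPM in RISC and 1.20 ± 0.856 CPM in mRNA libraries (SD, n = 4 and 5), with overlap and an edgeR adjusted p of 0.243.

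Among H2A genes the variants carried the called differences. H2afz, whose product H2A.Z flanks active transcription start sites, had 1.11, 8.89, 1.68 and 2.80 CPM in miR-17-5p RISC libraries 2, 4, 5 and 6, against 78.9, 64.5, 80.0, 72.1 and 67.7 CPM in miR-17-5p mRNA libraries 1, 2, 4, 5 and 6. The highest RISC library was far below the lowest mRNA library. The log2 fold change was -4.18 ± 0.53 (SE; edgeR adjusted p = 7.36e-05), between -5.16 and -3.87 over the alternatives and the fits that left out 1 library, all of them called.

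H2afx, whose product is phosphorylated at DNA breaks and whose mRNA can end in either a stem-loop or a poly(A) tail, had 46.2, 38.3, 47.8 and 81.9 CPM in miR-17-5p RISC libraries 2, 4, 5 and 6, against 35.6, 35.3, 34.8, 44.4 and 43.6 CPM in miR-17-5p mRNA libraries 1, 2, 4, 5 and 6. RISC library 6 was the highest, and RISC library 4 lay within the range of the mRNA libraries. The log2 fold change was 0.62 ± 0.23 (SE; edgeR adjusted p = 0.0474). The call was lost in 6 of 8 alternatives, with DESeq2 size factors among them, and without any 1 library except miR-17-5p RISC library 4; without miR-17-5p RISC library 6 the log2 fold change was 0.37 (adjusted p = 0.146).

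The macroH2A genes, which encode H2A with an added macro domain, were not called by edgeR with all libraries. H2afy averaged 66.2 ± 16.3 CPM in RISC and 94.6 ± 10.6 CPM in mRNA libraries (SD, n = 4 and 5; edgeR adjusted p = 0.136), and it was called lower with DESeq2's Wald test and without miR-17-5p RISC library 6 (adjusted p = 0.0411 and 0.0434). H2afy2 averaged 7.65 ± 3.58 CPM in RISC and 17.2 ± 8.00 CPM in mRNA libraries (SD, n = 4 and 5), without overlap but with an edgeR adjusted p of 0.122. The Hist H2A genes Hist1h2ail, Hist1h2an, Hist2h2ab and Hist3h2a had overlapping groups and were not called. Hist3h2a had 0 counts in miR-17-5p RISC libraries 2, 4 and 5 and 6.44 CPM in library 6.

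Among the H2B genes only Hist1h2bl was called by edgeR with all libraries. It had 2.55, 25.1, 2.99 and 2.38 CPM in miR-17-5p RISC libraries 2, 4, 5 and 6, against 0.063, 0, 0.688, 0.192 and 0.350 CPM in miR-17-5p mRNA libraries 1, 2, 4, 5 and 6. Every RISC library was above every mRNA library, and RISC library 4 stood far above the other 3. The gene passed the filter on low counts only through the RISC libraries. The log2 fold change was 5.12 ± 1.27 (SE; edgeR adjusted p = 0.0064), and DESeq2's Wald test gave it no adjusted p. Without miR-17-5p RISC library 4 the log2 fold change was 3.54 (adjusted p = 0.0252), the lowest over the left-out libraries, where it reached 5.83. The call was lost with the replicate numbers as a block (adjusted p = 0.0578). Hist1h2bh had 25.3, 31.2, 11.8 and 18.5 CPM in miR-17-5p RISC libraries 2, 4, 5 and 6, against 34.6, 28.2, 40.3, 36.3 and 42.3 CPM in miR-17-5p mRNA libraries 1, 2, 4, 5 and 6, with overlap at RISC library 4 and an edgeR adjusted p of 0.115; limma-voom and the fit without miR-17-5p RISC library 4 called it lower (adjusted p = 0.0281 and 0.0342). Hist1h2bk averaged 6.73 ± 2.01 CPM in RISC and 1.60 ± 1.54 CPM in mRNA libraries (SD, n = 4 and 5), without overlap, and had an edgeR adjusted p of 0.109. The other H2B genes tested, Hist1h2bo and Hist3h2ba, had overlapping groups and edgeR adjusted p of 0.281 and 0.271.

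Hist2h3c2, the only H3 gene among the Hist members, had 15.3, 6.60, 13.9 and 4.90 CPM in miR-17-5p RISC libraries 2, 4, 5 and 6, against 1.70, 0.135, 0.860, 0.962 and 1.40 CPM in miR-17-5p mRNA libraries 1, 2, 4, 5 and 6. The groups did not overlap. Its log2 fold change was 3.49 ± 0.83 (SE; edgeR adjusted p = 0.00500). It stayed called in 7 of 8 alternative analyses and in all 9 fits that left out 1 library, and the call was lost with the replicate numbers as a block (adjusted p = 0.0721). Its promoter, printed above, had matches to CCAAT and none to the other 3 motifs. H3f3b, which encodes the replacement histone H3.3, had 304, 137, 180 and 384 CPM in miR-17-5p RISC libraries 2, 4, 5 and 6, against 359, 407, 343, 331 and 328 CPM in miR-17-5p mRNA libraries 1, 2, 4, 5 and 6. RISC library 6 lay within the mRNA range and RISC library 4 was lowest (log2 fold change -0.33 ± 0.25, edgeR adjusted p = 0.316).

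Of the 3 H4 genes Hist1h4b was the only one tested. It had 7.60, 0.0880, 3.55 and 14.4 CPM in miR-17-5p RISC libraries 2, 4, 5 and 6, against 12.0, 13.0, 7.57, 12.3 and 12.9 CPM in miR-17-5p mRNA libraries 1, 2, 4, 5 and 6. RISC library 6 was the highest of all and RISC library 4 the lowest (edgeR adjusted p = 0.551). Thus Hist genes and variants each held members above and below 0 in this comparison.

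**Figure D3:**
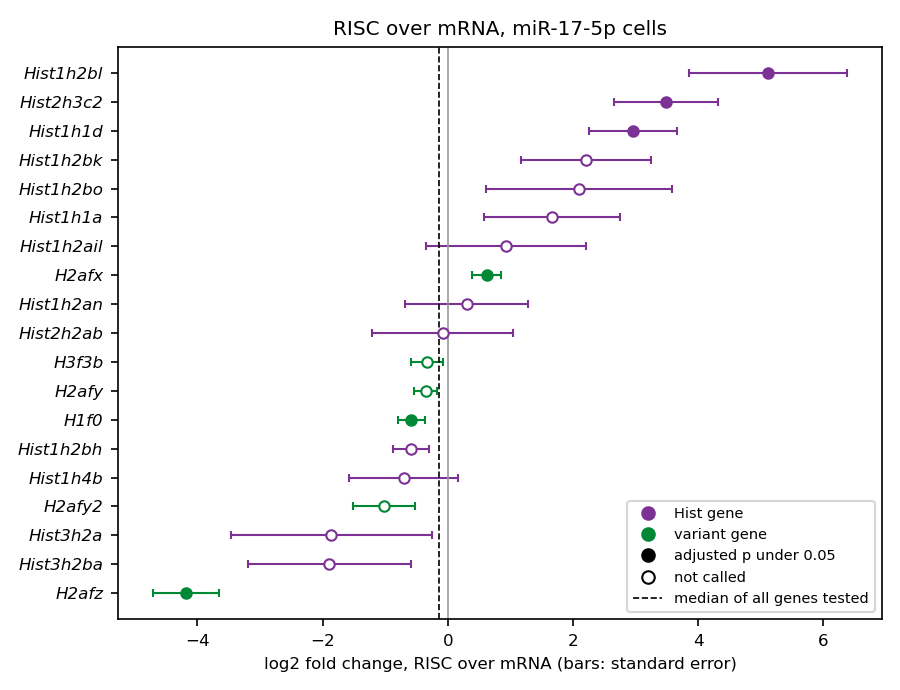
Log2 fold change, RISC over mRNA in miR-17-5p cells, of the 19 members tested (points, with SE as bars; filled where the adjusted p is under 0.05; dashed line, median of all genes tested). Hist1h2bl at 5.12, Hist2h3c2 at 3.49 and Hist1h1d at 2.96 are at the top, and H2afz at -4.18 is at the bottom.

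In control cells the same comparison of RISC with mRNA rested on 3 libraries a group, and the RISC libraries were patchy. Hist1h1d again was higher in RISC, and the H2A genes Hist2h2ab and Hist3h2a had no count there. Of 14 members tested, 3 were called by edgeR's quasi-likelihood F-test, 1 higher and 2 lower, while 28.2% of the 10170 genes tested were called, 5.96% higher and 22.3% lower. The median log2 fold change of all genes tested was -0.69, and it was -0.87 with DESeq2 size factors and -0.45 with library totals taken without Rn45s, Ins1 and Ins2. The count of members called was 1 of 15 tested without control mRNA library 2, in a fit that called 13.8% of all genes. It was 8 of 19 without control RISC library 1, 10 of 17 without control RISC library 2 and 7 of 18 without control RISC library 3, in fits that called 38.6%, 42.4% and 37.8% of all genes. Among genes with a mean of at least 50 counts it was 0 of 10, and 15.1% of all such genes were called.

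Hist1h1d had 66.2, 33.2 and 29.7 CPM in control RISC libraries 1, 2 and 3, against 4.93, 1.74 and 1.42 CPM in control mRNA libraries 1, 2 and 3. All RISC libraries were above all mRNA libraries, with a log2 fold change of 3.98 ± 1.02 (SE; edgeR adjusted p = 0.0319). The call was lost without any 1 of control mRNA libraries 1, 2 or 3 (adjusted p up to 0.181).

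Hist2h2ab had no count in the 3 control RISC libraries, against 4.49, 5.95 and 2.85 CPM in control mRNA libraries 1, 2 and 3. It was at least 53.4-fold lower, taking 3 counts over the 3 RISC libraries as the floor (edgeR adjusted p = 0.00845). Hist3h2a likewise had no count in control RISC libraries, against 9.64, 11.9 and 15.3 CPM in control mRNA libraries 1, 2 and 3. It was at least 126-fold lower by the same floor (edgeR adjusted p = 0.0107), a call lost without control mRNA library 1 or 2 (adjusted p up to 0.0660). With the replicate numbers as a block none of these 3 genes was called (adjusted p = 0.287 for Hist1h1d and 0.156 for Hist2h2ab and Hist3h2a). Intervals and floors cover counting error only. Hist2h2ab and Hist3h2a passed the filter on low counts only through the mRNA libraries, which fixed their direction in advance.

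The variants were not called by edgeR in control cells with all libraries, although some levels differed widely. H2afz had 20.8, 0 and 0 CPM in control RISC libraries 1, 2 and 3, against 83.2, 76.9 and 59.5 CPM in control mRNA libraries 1, 2 and 3. The groups did not overlap, but the spread within RISC was large (log2 fold change -3.39 ± 2.41, edgeR adjusted p = 0.450). It was called lower with limma-voom (adjusted p = 0.00707) and without control RISC library 1 (adjusted p = 0.00996), which left RISC libraries 2 and 3, both at 0. H1f0 had 97.8, 0.216 and 67.1 CPM in control RISC libraries 1, 2 and 3, against 114, 127 and 99.7 CPM in control mRNA libraries 1, 2 and 3; RISC library 2 was nearly empty of it (edgeR adjusted p = 0.761). H2afx had 0, 59.7 and 38.4 CPM in control RISC libraries 1, 2 and 3, against 32.3, 47.9 and 34.5 CPM in control mRNA libraries 1, 2 and 3, so that RISC library 1 held none and RISC library 2 held most.

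H3f3b had 122, 294 and 93.4 CPM in control RISC libraries 1, 2 and 3, against 480, 420 and 409 CPM in control mRNA libraries 1, 2 and 3. No RISC library reached the mRNA range (log2 fold change -1.36 ± 0.46, edgeR adjusted p = 0.0907). It was called lower with DESeq2's Wald test (adjusted p = 0.00915), with limma-voom (adjusted p = 0.0387) and without control RISC library 2 (log2 fold change -2.05, adjusted p = 0.00707). H2afy had 45.1, 100 and 66.0 CPM in control RISC libraries 1, 2 and 3, against 114, 97.7 and 132 CPM in control mRNA libraries 1, 2 and 3, with overlap at RISC library 2 (edgeR adjusted p = 0.276); without that library it was called lower, with a log2 fold change of -1.09 (adjusted p = 0.0436). Among Hist genes, Hist1h2bh had 0.0556, 34.5 and 40.7 CPM in control RISC libraries 1, 2 and 3, against 45.0, 41.8 and 23.9 CPM in control mRNA libraries 1, 2 and 3. RISC library 1 was nearly empty of Hist1h2bh and RISC libraries 2 and 3 lay within the mRNA range. Hist1h4b had 0, 11.0 and 6.38 CPM in control RISC libraries 1, 2 and 3, against 16.2, 12.0 and 11.0 CPM in control mRNA libraries 1, 2 and 3 (edgeR adjusted p = 0.788).

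**Figure D4:**
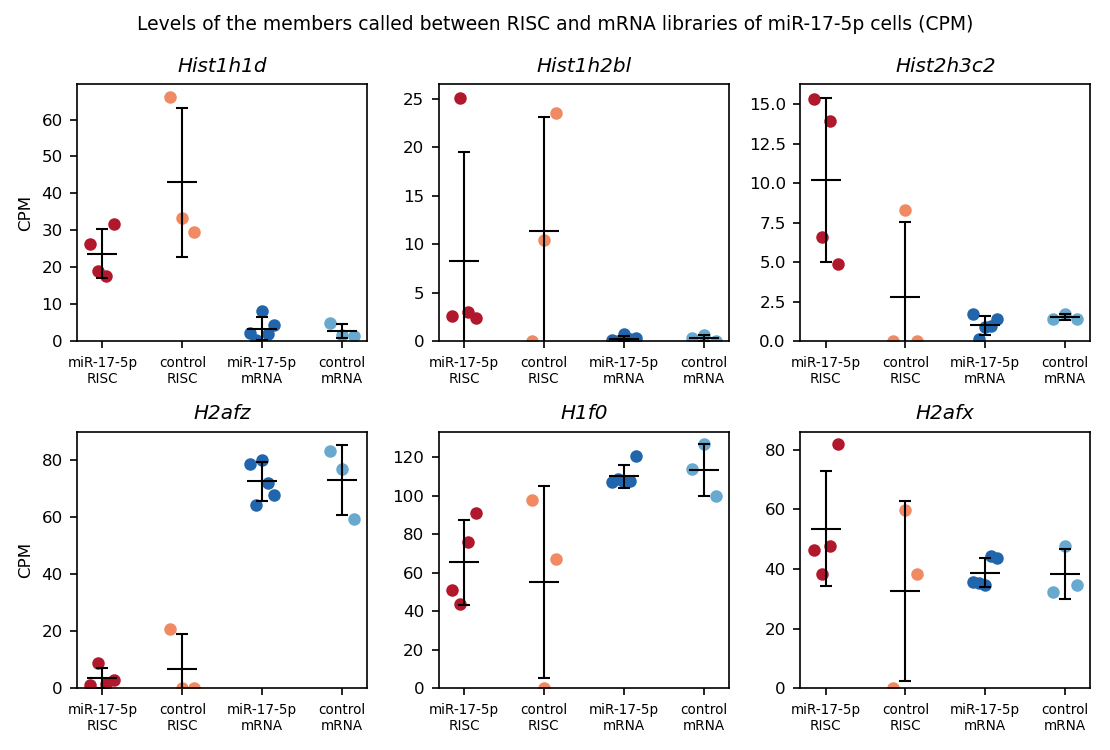
CPM of the 6 members called between RISC and mRNA libraries of miR-17-5p cells, in each library of the 4 groups (points), with group mean and SD (bars); each panel has its own linear axis from 0. Hist1h1d is at 17.5 CPM or more in every RISC library and at 8.09 CPM or less in every mRNA library, and H2afz is at 20.8 CPM or less in every RISC library and at 59.5 CPM or more in every mRNA library.

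Added miR-17-5p was next compared with the control mimic in the mRNA libraries, the comparison with the smallest spread (common biological coefficient of variation 0.305). No histone gene was called. Of the 16 members tested, 0 passed by edgeR's quasi-likelihood F-test, while 3.87% of the 11077 genes tested did, 3.11% higher and 0.767% lower. At an unadjusted p under 0.05 there were 4 members, H2afy2, Hist3h2ba, H3f3b and Hist3h2a, or 4 of 16, while 19% of all genes tested were under it, so that the members' share was near that of all genes. DESeq2's Wald test called 2 members and limma-voom called 3, in fits that called 8.01% and 9.04% of all genes. Higher calls made up 80.2% of all calls, or 64.2% with library totals taken without Rn45s, Ins1 and Ins2. The median log2 fold change was -0.27 over the 10 Hist genes tested and -0.03 over the 6 variants tested, against 0.01 over all genes tested, and 1 of the 10 Hist genes was above 0. Marker genes of other cells moved with the mimic in the same libraries: 5 of 6 stellate markers tested rose, 2 of 5 endothelial markers (Cdh5 and Kdr) fell and 3 of 3 red blood cell markers fell, while 0 of 5 macrophage, 0 of 5 beta cell and 0 of 3 acinar markers were called. Of the markers of other islet endocrine cells, 1 of 4 fell, the ghrelin gene Ghrl, at 34.4 ± 6.59 CPM in miR-17-5p and 75.0 ± 21.9 CPM in control mRNA libraries (SD, n = 5 and 3; log2 fold change -1.13 ± 0.20, edgeR adjusted p = 0.00894). Those 4 had a median log2 fold change of -0.81 and summed to 11551 to 14892 CPM in miR-17-5p and 12566 to 19258 CPM in control mRNA libraries. Red blood cell markers summed to 11.2 to 25.7 CPM in miR-17-5p mRNA libraries, against 37.8 to 170 CPM in control mRNA libraries, and macrophage markers to 60.5 to 175 CPM, against 21.4 to 121 CPM. The part of these markers in the histone values was not tested.

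H2afy2, encoding the second macroH2A, had 12.0, 29.5, 21.2, 11.3 and 12.0 CPM in miR-17-5p mRNA libraries 1, 2, 4, 5 and 6, against 3.94, 4.64 and 9.97 CPM in control mRNA libraries 1, 2 and 3. The groups did not overlap, with control library 3 just below miR-17-5p library 5. The log2 fold change was 1.55 ± 0.44 (SE; edgeR adjusted p = 0.0668), and the adjusted p was 0.0134 with DESeq2's Wald test, 0.0238 with limma-voom and 0.0399 without miR-17-5p mRNA library 1. Leaving out other libraries gave adjusted p up to 0.242.

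Hist3h2ba and Hist3h2a, an H2B and an H2A gene, both had lower means in miR-17-5p cells without being called. Hist3h2ba had 12.0, 2.98, 5.16, 11.2 and 9.67 CPM in miR-17-5p mRNA libraries 1, 2, 4, 5 and 6, against 15.8, 22.3 and 22.4 CPM in control mRNA libraries 1, 2 and 3. No library of either group overlapped the other group (log2 fold change -1.28 ± 0.39, edgeR adjusted p = 0.0888; 0.0337 with DESeq2's Wald test, 0.0228 with limma-voom and 0.0477 without miR-17-5p mRNA library 1). Hist3h2a had 5.73, 2.98, 4.30, 8.65 and 9.20 CPM in miR-17-5p mRNA libraries 1, 2, 4, 5 and 6, against 9.64, 11.9 and 15.3 CPM in control mRNA libraries 1, 2 and 3. The highest miR-17-5p library was just below the lowest control library (log2 fold change -0.98 ± 0.40, edgeR adjusted p = 0.199). Both genes were lowest in miR-17-5p mRNA libraries 2 and 4. Hist2h2ab, the Hist gene with the next smallest p, averaged 2.63 ± 0.584 CPM in miR-17-5p and 4.43 ± 1.55 CPM in control mRNA libraries (SD, n = 5 and 3; edgeR adjusted p = 0.490).

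The most counted members were not called either. H3f3b averaged 354 ± 32.3 CPM in miR-17-5p and 436 ± 38.6 CPM in control mRNA libraries (SD, n = 5 and 3), and its highest miR-17-5p library, at 407 CPM, was just below its lowest control library, at 409 CPM. The log2 fold change was -0.30 ± 0.12 (SE; edgeR adjusted p = 0.192), and limma-voom called it lower. H2afy averaged 94.6 ± 10.6 CPM in miR-17-5p and 114 ± 17 CPM in control mRNA libraries (edgeR adjusted p = 0.329, same n). H1f0 had a log2 fold change of -0.04 ± 0.12 (SE), Hist1h2bh of -0.03 ± 0.21 and Hist1h4b of -0.18 ± 0.28, with edgeR adjusted p of 0.893, 0.952 and 0.775. Hist1h1d averaged 3.40 ± 3.01 CPM in miR-17-5p and 2.70 ± 1.94 CPM in control mRNA libraries (SD, n = 5 and 3; edgeR adjusted p = 0.893).

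**Figure D5:**
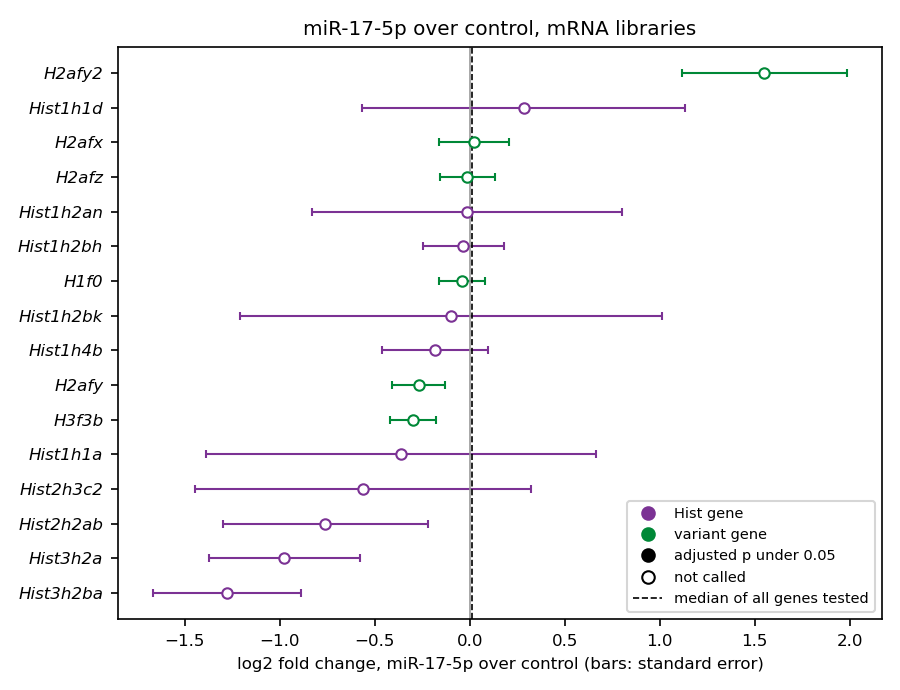
Log2 fold change, miR-17-5p over control in the mRNA libraries, of the 16 members tested (points, with SE as bars; no point is filled because no adjusted p is under 0.05; dashed line, median of all genes tested). H2afy2 at 1.55 is at the top, Hist3h2ba at -1.28 and Hist3h2a at -0.98 are at the bottom, and H1f0, H2afx and H2afz are near 0.

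In the RISC libraries no histone gene was called between mimics either. Of 19 members tested, 0 passed by edgeR's quasi-likelihood F-test, while 0.371% of the 9443 genes tested were called, 0.339% higher and 0.0318% lower. At an unadjusted p under 0.05 there were 4 of 19 members, near the share of all genes tested, 20.1%. The common biological coefficient of variation was 1.23. DESeq2's Wald test called 2 members, Hist1h1a and Hist1h2bk, in a fit that called 13.8% of all genes, and limma-voom called 0. There were 3 calls without control RISC library 2 (12.0% of all genes called) and 3 without miR-17-5p RISC library 4 (6.08%). The median log2 fold change of all genes tested was 0.27, or 0.08 with totals taken without Rn45s, Ins1 and Ins2. Of the stellate markers, 3 of 6 tested rose in miR-17-5p RISC libraries and Col1a2 was at 0 in all 4 groups. Of the macrophage markers, 1 of 4 tested rose, Lcp1 (edgeR adjusted p = 0.0257), and Aif1 was at 0 in miR-17-5p RISC libraries. Endothelial markers summed to 35.8 to 115 CPM in the RISC libraries of miR-17-5p cells, against 73.6 to 241 CPM in control RISC libraries, with 0 of 5 called. Of the beta cell markers 0 of 5 and of the other islet endocrine markers 0 of 3 were called. Red blood cell markers summed to 0 to 4.23 CPM, against 0 to 13.9 CPM, and none could be tested. The part of these markers in the histone values was not tested.

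Those 4 members, described here for their smallest p, were Hist genes that were nearly empty in control RISC libraries. With 2 counts or fewer there, each passed the filter on low counts only through the miR-17-5p RISC libraries. The filter thus fixed their direction in advance. Intervals given for their ratios cover counting error only, and not the spread between libraries. Hist1h1a had 1.38, 3.35, 4.40 and 4.48 CPM in miR-17-5p RISC libraries 2, 4, 5 and 6, against 0, 0 and 0.159 CPM in control RISC libraries 1, 2 and 3. The ratio of summed counts, scaled to library size, was 104 (exact 95% interval 18.4 to 4138; edgeR adjusted p = 0.121). Hist1h2bk, an H2B gene, had 5.63, 8.80, 4.49 and 7.98 CPM in miR-17-5p RISC libraries 2, 4, 5 and 6, against 0.0556, 0.108 and 0 CPM in control RISC libraries 1, 2 and 3, a ratio of 110 (30.1 to 910; edgeR adjusted p = 0.0732).

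Hist2h4, an H4 gene, had 1.11, 0.264, 4.49 and 5.18 CPM in miR-17-5p RISC libraries 2, 4, 5 and 6, against no count in the 3 control RISC libraries. It was at least 26.4-fold higher against a floor of 3 counts over the control group (edgeR adjusted p = 0.0900). Hist2h2ab had 4.32, 0, 1.22 and 3.36 CPM in the same miR-17-5p libraries, against no count in the control RISC libraries, at least 25.9-fold higher (edgeR adjusted p = 0.129). Hist2h2ab was at 0 in miR-17-5p RISC library 4 too, so its groups overlapped. Both bounds cover counting error only, and not the spread between libraries. Control RISC libraries also had the fewest genes detected. Total reads overlapped, at 7819020 to 12733872 in miR-17-5p RISC libraries and 4185123 to 13420403 in control RISC libraries. Control RISC library 1 was the deepest and showed 4 Hist genes. The part of gene detection in these values was not tested.

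Other members were not called between mimics in RISC by edgeR with all libraries. Hist1h1d averaged 23.6 ± 6.64 CPM in miR-17-5p RISC libraries and 43.0 ± 20.1 CPM in control RISC libraries (SD, n = 4 and 3; edgeR adjusted p = 0.795). H3f3b averaged 251 ± 113 CPM in miR-17-5p RISC libraries and 170 ± 109 CPM in control RISC libraries (edgeR adjusted p = 0.750, same n). H2afy averaged 66.2 ± 16.3 CPM in miR-17-5p RISC libraries and 70.4 ± 27.8 CPM in control RISC libraries (edgeR adjusted p = 0.987, same n). Hist2h3c2 averaged 10.2 ± 5.20 CPM in miR-17-5p RISC libraries and 2.77 ± 4.80 CPM in control RISC libraries (edgeR adjusted p = 0.896, same n). H1f0, H2afx, H2afz, Hist1h2bh and Hist1h4b had edgeR adjusted p of 0.974 or more.

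The difference between the miR-17-5p effects in RISC and in mRNA was tested as an interaction over all 15 libraries. It was called for 4 of 23 members tested, all positive and all Hist genes, while 13.4% of the 11418 genes tested were called, 13% positive and 0.394% negative. The members' share was thus near that of all genes, and 97.1% of all calls were positive. The 4 members were Hist1h1a (edgeR adjusted p = 0.0348), the H2A genes Hist1h2an (0.0113) and Hist2h2ab (0.0159), and Hist1h2bk (0.0375). The count was 0 with limma-voom, which called 0% of all genes, 0 with the replicate numbers as a block, which called 0.263%, and 0 among genes with a mean of at least 50 counts, of which 12.0% were called. It was 2 without control mRNA library 1 or 2 or miR-17-5p mRNA library 1, 5 or 6, in fits that called 10.3% to 11.6% of all genes, and 7 without control RISC library 2, where 24.4% were called. The macrophage marker Lcp1 was positive in the same test (edgeR adjusted p = 0.000145).

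These 4 genes had little or no signal in control RISC libraries, and they passed the filter on low counts only through the other groups. Hist1h2an had 1.83, 0.528, 0.842 and 3.78 CPM in miR-17-5p RISC libraries 2, 4, 5 and 6, against no count in the 3 control RISC libraries. It had 0.441, 1.08, 1.89, 1.35 and 3.03 CPM in miR-17-5p mRNA libraries 1, 2, 4, 5 and 6, against 2.08, 1.74 and 0.712 CPM in control mRNA libraries 1, 2 and 3. Hist1h1a averaged 1.20 ± 0.856 CPM in miR-17-5p and 1.56 ± 0.529 CPM in control mRNA libraries, and Hist1h2bk averaged 1.60 ± 1.54 CPM in miR-17-5p and 1.61 ± 1.44 CPM in control mRNA libraries (SD, n = 5 and 3). Hist2h2ab averaged 2.63 ± 0.584 CPM in miR-17-5p and 4.43 ± 1.55 CPM in control mRNA libraries, a log2 fold change of -0.76 (same n). All 6 variants tested had an edgeR adjusted p of 0.344 or more in the interaction with all libraries. Without control RISC library 2, H2afy2 and H3f3b were called positive (adjusted p = 0.00102 and 0.00828), and without control RISC library 1 H2afz was (adjusted p = 0.00126). H2afy2 was at 0 in control RISC libraries 1 and 3, and H2afz in control RISC libraries 2 and 3.

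The rest of the Hist genes had low counts or counts in few libraries. Hist1h2af, Hist1h2ak, Hist1h2aa, Hist1h2ba, Hist1h2bd and Hist1h4m had no count in the 3 control RISC libraries. In the other groups their means ranged from 0.0959 CPM, for Hist1h2af in miR-17-5p RISC libraries, to 1.48 CPM, for Hist1h2af in control mRNA libraries, apart from Hist1h4m, which had no count in control mRNA libraries, and Hist1h2bd, which averaged 0.0483 CPM there. Hist1h2bd and Hist1h4m were highest in miR-17-5p RISC library 4, at 4.75 and 4.23 CPM, the library in which Hist1h2bl was highest. Hist1h1b, a linker gene, had 3.08, 0, 0.655 and 15.3 CPM in miR-17-5p RISC libraries 2, 4, 5 and 6, against 10.4, 0.863 and 0 CPM in control RISC libraries 1, 2 and 3. Hist1h2ail, an H2A gene, reached 13.7 CPM in control RISC library 2 and was at 0 in control RISC libraries 1 and 3.

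Genes that act on histone transcripts were read from a list of factors of histone gene transcription and mRNA processing, 15 of which were in the files. Between RISC and mRNA libraries of miR-17-5p cells, 6 of 15 rose and 0 fell, while 43.5% of all genes tested were called, 21.7% higher and 21.8% lower. The median log2 fold change was 0.81, against -0.15 over all genes tested. Pou2f1, which encodes Oct-1, the factor that binds the octamer, averaged 143 ± 39.6 CPM in RISC and 7.46 ± 2.87 CPM in mRNA libraries (SD, n = 4 and 5), a log2 fold change of 4.44 ± 0.35 (SE; edgeR adjusted p = 2.71e-06). Casp8ap2, or FLASH, which takes part in cleavage of the stem-loop mRNAs, averaged 43.0 ± 9.67 CPM in RISC and 9.74 ± 2.81 CPM in mRNA libraries (log2 fold change 2.30 ± 0.30, edgeR adjusted p = 7.87e-05). Cpsf2, a subunit of the cleavage complex, rose by 1.21 ± 0.17, and Cstf2t by 1.15 ± 0.17, on the log2 scale (SE; edgeR adjusted p = 0.000125 and 0.000234).

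In control cells 4 of the 15 rose between RISC and mRNA libraries and 0 fell, while 28.2% of all genes tested were called, 5.96% higher. The median log2 fold change was 0.70, against -0.69 over all genes tested. Pou2f1 averaged 185 ± 89.4 CPM in RISC and 9.67 ± 1.23 CPM in mRNA libraries (SD, n = 3 each; edgeR adjusted p = 0.00791). Casp8ap2 averaged 68.6 ± 9.61 CPM in RISC and 7.99 ± 0.237 CPM in mRNA libraries (SD, n = 3 each; edgeR adjusted p = 0.0105). Cpsf2 and Zcchc8 had log2 fold changes of 1.26 ± 0.29 and 1.66 ± 0.40 (SE; edgeR adjusted p = 0.0218 and 0.0243). None of the 15 was called between mimics in mRNA or in RISC, or in the interaction.

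Of the histone chaperones, 22 were in the files. Npm1, a nucleolar chaperone, was the only one called between mimics in mRNA, where 3.87% of all genes were called, at 130 ± 24.5 CPM in miR-17-5p and 80.5 ± 11.8 CPM in control libraries (SD, n = 5 and 3; log2 fold change 0.69 ± 0.17, edgeR adjusted p = 0.0375). None of the 21 tested in RISC was called between mimics. Between RISC and mRNA of miR-17-5p cells 4 rose and 6 fell, against 21.7% and 21.8% of all genes. Npm1 fell, at 39.7 ± 12.2 CPM in RISC and 130 ± 24.5 CPM in mRNA libraries, and so did Nap1l4, a nucleosome assembly protein, at 35.8 ± 7.78 CPM in RISC and 75.6 ± 8.32 CPM in mRNA libraries (SD, n = 4 and 5; edgeR adjusted p = 0.000156 and 0.0017). Supt16h, of the FACT complex, and Supt6h rose by 1.20 ± 0.18 and 0.80 ± 0.13 on the log2 scale (SE; edgeR adjusted p = 0.000288 and 0.000478). In control cells 1 rose and 4 fell, where 28.2% of all genes were called. Those 4, Hat1, Chaf1b, Asf1b and Rbbp4, had no count in control RISC libraries and passed the filter on low counts only through the mRNA libraries. In the interaction 3 were positive and 1 negative, and 13.4% of all genes were called.

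For the S phase genes, 32 in the files, none was called between mimics in mRNA, where their median log2 fold change was 0.45, against 0.01 over all genes tested, and none of 30 tested in RISC, where it was 1.34, against 0.27. Between RISC and mRNA of miR-17-5p cells 7 rose and 5 fell, against 21.7% and 21.8% of all genes. Top2a, which untangles replicated DNA, averaged 86.5 ± 19.0 CPM in RISC and 27.3 ± 7.01 CPM in mRNA libraries, and Tyms, which makes thymidylate, 32.3 ± 10.2 CPM in RISC and 12.2 ± 4.16 CPM in mRNA libraries (SD, n = 4 and 5; edgeR adjusted p = 6.4e-05 and 0.00272). Pola1, the catalytic subunit of DNA polymerase alpha, and the proliferation marker Mki67 rose by 1.78 ± 0.42 and 1.05 ± 0.25 on the log2 scale (SE; edgeR adjusted p = 0.00448 and 0.00508). The 5 that fell, named after their values were seen, were Mcm7, Cdc6, Dut, Tk1 and Gins1, with log2 fold changes between -4.03 and -0.93. Mcm7, of the replicative helicase, averaged 16.1 ± 4.78 CPM in RISC and 34.8 ± 6.21 CPM in mRNA libraries (SD, n = 4 and 5; edgeR adjusted p = 0.0211). In control cells 1 rose and 8 fell, where 28.2% of all genes were called, and Cdc45, Rpa2, Tyms and Tk1 were among those with no count in control RISC libraries. Genes with no count there passed the filter on low counts only through the mRNA libraries. In the interaction 8 were positive and 1 negative, out of 32, and 13.4% of all genes were called.

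RNAs made without a poly(A) tail were listed as a check of the library types, and 3 were in the files. Rn45s averaged 291020 ± 117170 CPM in miR-17-5p RISC and 89468 ± 39906 CPM in miR-17-5p mRNA libraries (SD, n = 4 and 5; log2 fold change 1.85 ± 0.36, edgeR adjusted p = 0.00159). It was not called in control cells, and the 1 other RNA of this list that could be tested was called in no comparison. In miR-17-5p cells that other RNA was lower in RISC, and the median log2 fold change of the 2 tested was 0.41. In control cells the median of the 2 was -0.41. Over all genes tested the medians were -0.15 in miR-17-5p cells and -0.69 in control cells. The part of these RNAs in the histone differences was not tested.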

How the data were processed

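Deposited data were HTSeq tables of counts per gene, 1 per library, 15 in all. Per the submitters' processing notes, TopHat2 2.0.10, Bowtie2 and HTSeq made the authors' counts on build rn5; no version of Bowtie2 or HTSeq is stated. Per the labels' protocols the kit kept no strand and read 1 end, so a gene shares reads with any antisense or overlapping partner. Reads with more than 1 alignment were 24.7% to 31.2% of a RISC library and 15.0% to 29.1% of an mRNA library. Ambiguous reads were 0.151% to 0.308% of a RISC library and 0.377% to 0.454% of an mRNA library. Both kinds stayed out of library sizes and tests, and their part in the Hist to variant ratio was not tested. Histone genes are close in sequence, so their counts are uncertain where reads fit several copies. Counts are not per transcript length. The Hist to variant ratio, the shares of class reads and the most counted genes therefore describe reads and not numbers of transcripts.

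Groups came from the sample titles. Tests on the deposited counts used edgeR 4.0.16 under R 4.3.3 (TMM factors, filterByExpr, robust quasi-likelihood fit, two-sided F-test) on each comparison's libraries, and the Benjamini-Hochberg adjustment ran over all genes tested, with an adjusted p under 0.05 as called. The SE printed with an edgeR log2 fold change is that change, without its sign, divided by the square root of F. CPM used TMM factors over all 15 libraries. Alternatives used DESeq2 1.42.0 size factors and its Wald test, limma 3.58.1 voom with quality weights, other library totals, filters, thinning and left-out libraries. Bounds for groups at 0 used a floor of 3 counts over the group, and ratios against 1 to 3 counts carry exact 95% intervals. Scripts were tested on simulated data. No 2 libraries of a group agreed within sampling noise (chi-square per degree of freedom 6.78 to 323).

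The members and gene lists were chosen with earlier results of these data known. Named genes were all members called, the 3 with the smallest p and the 3 with the highest CPM of each class per comparison, and at most 4 called genes of any other list. Comparisons share libraries. The RISC to mRNA fits assume 1 spread for both library types. Promoters and the microRNA come from RefSeq GRCr8, a build other than that of the counts.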

Additional observations from a re-analysis of the deposited data

Results flagged for a closer look

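Libraries that stood far from the rest of their group were looked for in 36 groups of 4 or 5 libraries, and 4 were found; chance gives about 1 in 20. Hist1h2bl was at 25.1 CPM in miR-17-5p RISC library 4, against 2.38 to 2.99 CPM in the other 3 of that group. Hist3h2a was at 6.44 CPM in miR-17-5p RISC library 6 and at 0 in the other 3. H1f0 was at 121 CPM in miR-17-5p mRNA library 6, above the 107 to 108 CPM of the other 4, and Hist1h4b was at 7.57 CPM in miR-17-5p mRNA library 4, below the 12.0 to 13.0 CPM of the other 4.

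The miR-17-5p effect differed between RISC and mRNA libraries by the edgeR interaction test for 4 Hist genes, 4 of 23 members tested, while 13.4% of the 11418 genes tested were called. The members' share was near that of all genes. With limma-voom 0 members were called, and 0 among genes with a mean of at least 50 counts. The adjusted p was 0.0348 for Hist1h1a, 0.0113 for Hist1h2an, 0.0375 for Hist1h2bk and 0.0159 for Hist2h2ab. Each had 2 counts or fewer over the 3 control RISC libraries.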

How the results depend on the processing

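The labels do not say whether libraries with the same replicate number in the titles came from the same preparation. Deviations of libraries with the same number from their group means correlated at -0.013 to 0.049 over 7 pairs of library types. Over 3 pairs of mimics the correlations were -0.179 to -0.015. With few libraries a group and a wide spread in RISC libraries, such correlations cannot exclude pairing. The miR-17-5p and control RISC libraries share 1 number, so no block could be fitted there. With the numbers as a replicate block, calls among members were 2 in RISC against mRNA of miR-17-5p cells (H2afz and Hist1h1d), and 0 in control RISC against mRNA and in the interaction; Hist1h1d turned to -1.72 (log2) between mimics in mRNA, and the interaction to 4.14 for H2afy2, 2.98 for H2afz and 0.53 for Hist1h2bh. The block called 33.5%, 3.32% and 0.263% of all genes in those 3 fits. No gene called with all libraries changed sign in any setting run.

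Counts of called members are given with the share of all genes called in the same fit. Between mimics in mRNA they were 0 (3.87%), and 1 with no filter (3.42%), 2 with DESeq2's Wald test (8.01%), 3 with limma-voom (9.04%), 1 thinned (4.84%) and 0 to 2 with a library left out (0.750% to 7.42%). In RISC they were 0 (0.371%), and 2 with the Wald test (13.8%) and 0 to 3 with a library left out (0% to 12.0%). Control RISC against mRNA gave 3 (28.2%), and 6 with no filter (26.0%), 6 with voom (38.1%), 0 at a mean of at least 50 counts (15.1%) and 1 to 10 with a library left out (12.2% to 42.4%). The interaction gave 4 (13.4%), and 0 at a mean of at least 50 counts (12.0%), 0 with voom (0%) and 2 to 7 with a library left out (10.3% to 24.4%).

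Genes not called with all libraries turned sign as follows (log2). Thinning gave 0.020 for Hist1h2bh and 0.10 for Hist1h4b between mimics in mRNA. In RISC, voom gave 0.090 for H2afy, 1.75 for H2afz and 2.64 for Hist1h2bh, and totals without Rn45s, Ins1 and Ins2 gave -0.042 for Hist1h4b. In the interaction voom gave 3.02 for H2afy2, 1.10 for H2afz and 3.28 for Hist1h2bh, which was 0.019 at a mean of at least 50 counts. With a library left out the ranges were, between mimics in mRNA, -0.11 to 0.043 for H1f0, -0.31 to 1.08 for Hist1h1d, -0.24 to 0.13 for Hist1h2bh and -0.28 to 0.0060 for Hist1h4b; in RISC, -0.29 to 0.91 for H1f0, -0.37 to 0.28 for H2afy, -1.86 to 8.18 for H2afz, -0.84 to 0.30 for Hist1h2bh and -0.62 to 1.03 for Hist1h4b; in control RISC against mRNA, -1.10 to 0.027 for Hist1h2bh; in the interaction, -0.085 to 1.30 for H1f0, -2.13 to 7.77 for H2afy2, -1.75 to 8.08 for H2afz, -0.54 to 0.53 for Hist1h2bh and -0.44 to 1.49 for Hist1h4b. In the interaction H2afy2 was called, positive, without control RISC library 2 (adjusted p = 0.00102) and H2afz without control RISC library 1 (adjusted p = 0.00126).

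The log2 ratio of Hist to variant reads averaged -2.03 in miR-17-5p RISC, -3.11 in miR-17-5p mRNA, -1.71 in control RISC and -2.95 in control mRNA libraries. Without the most counted gene of each class it was -1.20 in miR-17-5p RISC, -2.93 in miR-17-5p mRNA, -1.15 in control RISC and -2.41 in control mRNA; as a difference of mean log2(CPM + 1) it was -1.45 in miR-17-5p RISC, -2.50 in miR-17-5p mRNA, -1.59 in control RISC and -2.27 in control mRNA. Without Hist1h1d, Hist1h2bl, Hist2h3c2 and H2afz, chosen after seeing the data, it was -2.77 in miR-17-5p RISC, -3.03 in miR-17-5p mRNA, -3.21 in control RISC and -2.87 in control mRNA, and without Hist1h1d alone, chosen likewise, -2.38, -3.17, -2.97 and -2.99 in the same order. The cause of these shifts was not tested beyond the members left out. Of the 23 Hist genes, 8 to 17 passed the filter on low counts, depending on the comparison, and a count of 0 in control RISC library 3 allows up to 0.478 CPM.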
